A study of Mus musculus with 16 samples.

Results

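The nuclear-encoded subunits of the mitochondrial respiratory chain were followed in thymocytes with and without PKBα (Akt1). Members were taken by gene symbol from the array annotation, as the numbered Nduf genes, Sdha to Sdhd, the Uqcr genes, the Cox4 to Cox8 genes and the Atp5 genes. They came to 81 of the 18194 genes that a probe set with a single symbol represents, with 33 genes of complex I, 4 of complex II, 8 of complex III, 19 of complex IV and 17 of complex V. Where several probe sets measured a gene, the one with the highest mean log2 value over the 16 arrays stood for it. The members had 164 probe sets in all, and 33 genes had 1 probe set. The genes were chosen by symbol and not by level, although earlier results of these data were known. The arrays came from 8 mice on a C57Bl/6 backcross, 4 PKBα-/- mice and 4 wild-type (PKBα+/+) littermates, and each mouse gave ISP8 and DN3 cells, 1 array for each. Pair 1 was 3-week-old females, pair 2 was 3-week-old males, pair 3 was 2-week-old males and pair 4 was 5-week-old females. The gene is missing from every tissue of the PKBα-/- mice, so their thymocytes developed in a thymus that lacks PKBα as well. DN3 cells, precursors without CD4 or CD8 in which the pre-TCR forms, were sorted as lineage-negative cells by CD25 and CD44. ISP8 cells, a later stage that carries CD8 but no CD4 yet, were sorted by CD3, CD4 and CD8. The DN4 stage, which lies between them, was not analysed here.

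The respiratory chain carries electrons from NADH and succinate to oxygen across the inner mitochondrial membrane. Complex I (NADH dehydrogenase) and complex II (succinate dehydrogenase, which is also an enzyme of the citric acid cycle) pass electrons to ubiquinone, complex III (the cytochrome bc1 complex) passes them to cytochrome c, and complex IV (cytochrome c oxidase) passes them to oxygen. Complexes I, III and IV pump protons, and complex V (ATP synthase) lets the protons back through its membrane part, Fo, to drive ATP synthesis in its catalytic head, F1. A few subunits of complexes I, III, IV and V are encoded by mitochondrial DNA, and the genes described here are the nuclear ones. Cells that pass from the DN3 stage through pre-TCR selection start to divide rapidly, and ISP8 cells belong to that dividing compartment.

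Promoters of respiratory chain genes often hold sites for NRF1, for the ETS family factor GABP and for YY1. The 250 bases before the annotated start were read from RefSeq promoter windows (GRCm38.p6), and 66 of the 81 genes had one. On either strand, the letters GCGCNTGCG (core of the NRF1 motif) stood in 15 of the 66 genes (22.7%) and in 5.88% of all 27025 genes with a window, CCGGAAG (core of the ETS motif) in 12 genes (18.2%, against 7.83%), and AAGATGGCG (core of the YY1 motif) in 1, Atp5j (1.52%, against 0.71%). At least 1 of the 3 cores was found in 23 genes (34.8%, against 13.2% of all genes). Both the NRF1 and the ETS core were found in 4 genes. Of these, the 3 with all ISP8 arrays above all DN3 arrays are shown first, picked for that change, and the other, Atp5l, did not pass between the stages (-0.023 ± 0.073 SE, adjusted p = 0.837, log2 ISP8 minus DN3, limma). They are followed by the genes with the largest increase (Uqcrfs1) and the largest decrease (Cox6b2) between the stages, whose windows hold none of the cores. Each runs 5′ to 3′ along the gene, all 5 genes lie on the minus strand, and capitals mark the matches. The windows are chr9:50603850-50604099 for Sdhd, chr11:115419920-115420169 for Atp5h, chr5:115348959-115349208 for Cox6a1, chr13:30545317-30545566 for Uqcrfs1 and chr7:4753095-4753344 for Cox6b2.
Sdhd: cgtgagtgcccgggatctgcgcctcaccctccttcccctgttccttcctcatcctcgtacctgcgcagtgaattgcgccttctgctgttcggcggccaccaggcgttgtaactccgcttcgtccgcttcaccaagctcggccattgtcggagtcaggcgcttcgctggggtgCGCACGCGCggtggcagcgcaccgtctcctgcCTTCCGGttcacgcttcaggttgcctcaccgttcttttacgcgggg
Atp5h: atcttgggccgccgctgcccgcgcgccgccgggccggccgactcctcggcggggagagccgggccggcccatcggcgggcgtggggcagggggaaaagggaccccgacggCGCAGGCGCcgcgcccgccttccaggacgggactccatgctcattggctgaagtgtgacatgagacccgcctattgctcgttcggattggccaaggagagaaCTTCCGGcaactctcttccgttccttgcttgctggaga
Cox6a1: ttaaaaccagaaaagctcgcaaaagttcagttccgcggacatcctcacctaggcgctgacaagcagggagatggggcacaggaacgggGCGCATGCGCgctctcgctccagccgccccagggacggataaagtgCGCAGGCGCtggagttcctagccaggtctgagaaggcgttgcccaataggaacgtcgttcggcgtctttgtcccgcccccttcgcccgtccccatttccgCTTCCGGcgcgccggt
Uqcrfs1: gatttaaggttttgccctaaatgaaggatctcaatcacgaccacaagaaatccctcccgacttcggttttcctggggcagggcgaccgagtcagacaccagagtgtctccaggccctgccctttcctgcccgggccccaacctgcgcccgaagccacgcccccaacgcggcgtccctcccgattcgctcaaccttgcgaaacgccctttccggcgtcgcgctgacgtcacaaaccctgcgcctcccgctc
Cox6b2: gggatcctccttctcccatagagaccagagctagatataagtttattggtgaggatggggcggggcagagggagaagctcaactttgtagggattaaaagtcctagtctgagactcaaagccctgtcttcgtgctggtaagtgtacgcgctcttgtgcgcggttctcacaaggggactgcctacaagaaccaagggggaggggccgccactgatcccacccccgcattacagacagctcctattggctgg

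In Sdhd and Atp5h the first capital run is the NRF1 core and the second the ETS core, both in the reverse direction. Cox6a1 holds 3 matches to the NRF1 core, of which the first pair lies on opposite strands and overlaps, and an ETS core nearest the start. A match to these letters is a description of the window and not a bound site.

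The deletion was checked on Akt1 itself. In ISP8 cells its brightest probe set had 4.87 to 6.81 in PKBα-/- mice, against 1628 to 2211 in wild-type mice. In DN3 cells it had 2.01 to 27.3 in PKBα-/- mice, against 1198 to 2007 in wild-type mice (GC-RMA values on a linear scale, as are all levels below). A second of the 4 Akt1 probe sets passed the test in both subsets, the third did not, and the fourth was near background. Cd8a, a chain of the CD8 co-receptor, had 4251 to 6012 in ISP8 cells and 98.4 to 292 in DN3 cells, and Il2ra (CD25), which marks DN3 cells, had 84.8 to 460.1 in ISP8 cells and 6899 to 10971 in DN3 cells. All 10 proliferation markers measured were higher in ISP8 than in DN3 cells (median log2 change 1.87), 7 of 8 DN3 markers were lower, and of 5 ISP8 markers 3 were higher and 1 was lower. Summed markers of other cells came to 746 to 1444 in ISP8 and 6100.4 to 7671 in DN3 cells for mature T cells, 284 to 614 in ISP8 and 1155 to 1372 in DN3 cells for B cells, 193 to 414 in ISP8 and 1423 to 1906 in DN3 cells for NK cells, 208 to 447 in ISP8 and 573 to 1211 in DN3 cells for stroma, 53.1 to 197 in ISP8 and 87.4 to 187 in DN3 cells for erythroid cells, and 464 to 3540.4 in ISP8 and 740.2 to 2217 in DN3 cells for myeloid and dendritic cells. Single genes carried several of these sums, with Il7r at 798 in ISP8 and 6761 in DN3 cells (mean) for mature T cells, Cd79b at 259 in ISP8 and 1139.7 in DN3 cells for B cells, Nkg7 at 179 in ISP8 and 1612 in DN3 cells for NK cells and Epcam at 79.2 in ISP8 and 593 in DN3 cells for stroma. Of the other 3 mature T cell markers none passed, with log2 changes of 0.58, 0.27 and 0.33. Among the B cell markers Ms4a1 was higher in ISP8 cells (1.88). Among the myeloid and dendritic markers Lyz2, Csf1r and Adgre1 were lower (-2.85, -1.23 and -0.84) and Cd74 was higher (1.19). No other NK or stroma marker passed, so the sums give no direction for a cell type. Their part in the changes below was not tested. Fewer cells of a type and less RNA per cell cannot be told apart in such bulk samples. The difference between the 3′ and 5′ probe sets of actin, which grows as RNA degrades, was -0.44 for ISP8 minus DN3 cells (log2, exact two-sided sign-flip p = 0.0156 over 8 animals), and that of Gapdh was 0.025. That p takes the 8 animals as independent, although they form 4 littermate pairs. By genotype, actin had -0.23 in PKBα-/- (exact sign-flip p = 0.25) and -0.65 in wild-type mice (exact sign-flip p = 0.125). The part of these 3′ and 5′ differences in the changes was not tested either. The ISP8 arrays are numbered 1 to 8 and the DN3 arrays 9 to 16, so array order and subset cannot be told apart.

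The first comparison asked how transcripts of the chain differ between the 2 stages. Most of the subunits measured were slightly higher in ISP8 than in DN3 cells. Over both genotypes, with the animal as a block, 54 of the 79 subunits tested were higher in ISP8 cells, 4 were lower and 21 did not pass (limma, Benjamini-Hochberg adjusted p under 0.05 over all 32831 probe sets tested). Among all probe sets tested, 17.6% were higher and 24.9% were lower. The changes were small. The median log2 change, ISP8 minus DN3, was 0.25 over the members (quartiles 0.13 and 0.39), against -0.067 over all probe sets tested (quartiles -0.53 and 0.35). A subunit was higher in each of the 8 animals in 41 cases, and 12.4% of all probe sets were. All 8 ISP8 arrays lay above all 8 DN3 arrays for 25 members (all probe sets: 6.52%) and below them for 1, Cox6b2 (all probe sets: 9.92%), and the arrays of the stages overlapped for the other 53. Most subunits are among the bright probe sets of these cells, so the background was also taken over bright probe sets. With a filter at a value of 1000, 55 of 70 members were higher and 3 lower (median 0.27), while 40.5% of the 7554 probe sets tested were higher and 32.1% were lower (median 0.058). The counts depended on how the arrays were scaled to each other. After quantile normalization, 37 members were higher and 5 lower, with a median of 0.16 against 0.034 over all probe sets. Of all 32831 probe sets, 7022 were then higher and 6672 lower, against 5770 and 8171 as deposited. After centring each array on its median, 67 members were higher and 1 lower, with a median of 0.50 against 0.19. Of all probe sets, 9583 were then higher and 5136 lower. Relative to the median of all probe sets, the members' median was 0.32 as deposited and 0.13 after quantile normalization. Centring shifts all probe sets of an array alike, so it cannot change this value of 0.32. Of all probe sets that passed, 41.4%, 51.3% and 65.1% were higher in ISP8 cells under these scalings, in the same order. Of the 58 members that passed, the sign turned for Ndufa13, Ndufa2, Ndufb9 and Sdha after quantile normalization, all higher as deposited, and for Cox7a2l after centring, which was lower.

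**Figure D1:**
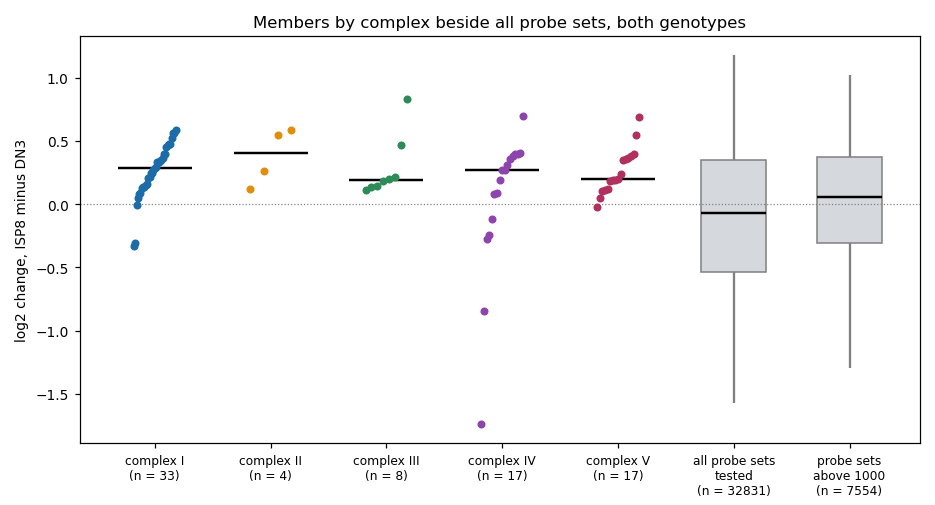
Log2 change between stages (ISP8 minus DN3, both genotypes, y axis) of every member tested, one point per gene, by complex, beside all probe sets tested and the probe sets above 1000. Black lines are medians, boxes run between the quartiles and whiskers between the 5th and 95th percentiles. The medians of the 5 complexes lie between 0.19 (complex III) and 0.40 (complex II), and that of all probe sets at -0.067.

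In complex I, 25 of 33 subunits were higher in ISP8 cells and 2 were lower (median log2 change 0.29). The 6 core subunits measured, which belong to the matrix arm that takes electrons from NADH, had 4 higher and none lower (median 0.23), and the 27 accessory subunits had 21 higher and 2 lower (median 0.29). Ndufv1, the core subunit that binds NADH, had a lowest, median and highest value of 10030.1, 10312 and 11369.9 in ISP8 cells, against 7119, 8253 and 9406 in DN3 cells. No ISP8 array overlapped with a DN3 array, and the change was 0.35 ± 0.054 (SE, adjusted p = 5.03e-05). Ndufs1, which holds iron-sulphur clusters, had 4153, 4668 and 4905 in ISP8 cells, against 3519.8, 3813 and 4226 in DN3 cells. Its ranges overlapped slightly, and it was higher in 7 of 8 animals (0.25 ± 0.060 SE, adjusted p = 0.00309). Ndufv2, a further iron-sulphur subunit, had 9768, 11681 and 14707 in ISP8 cells, against 8705, 9869 and 11756 in DN3 cells, and the change was 0.21 ± 0.065 (SE, adjusted p = 0.0153). After quantile normalization neither Ndufs1 (0.15, adjusted p = 0.0555) nor Ndufv2 (0.051, adjusted p = 0.579) passed, and Ndufv2 did not pass without pair 3 (0.17, adjusted p = 0.0575). The core subunits Ndufs7 and Ndufs8 did not pass, at 0.089 ± 0.050 (SE, adjusted p = 0.173) and 0.050 ± 0.042 (SE, adjusted p = 0.375). The accessory subunits with the smallest p were Ndufa5, Ndufc1 and Ndufb8. Ndufa5, a subunit of the matrix arm, had 7755, 9156 and 10040.3 in ISP8 cells, against 5310.5, 5935 and 6987 in DN3 cells, with a change of 0.59 ± 0.052 (SE, adjusted p = 9.42e-08). Ndufb8, a subunit of the membrane arm, had 5715, 6686 and 7412 in ISP8 cells, against 3669, 4649 and 4955 in DN3 cells, with a change of 0.56 ± 0.052 (SE, adjusted p = 1.63e-07). For these genes and for Ndufc1 (0.52 ± 0.048 SE, adjusted p = 1.51e-07) the stages did not overlap. Ndufs4, an accessory subunit of the matrix arm, had 2993, 3994 and 4803 in ISP8 cells, against 2132, 2706 and 3184 in DN3 cells and was higher in 8 of 8 animals, although the ranges overlapped (0.56 ± 0.075 SE, adjusted p = 1.07e-05). The 2 subunits that were lower in ISP8 cells were Ndufa7 and Ndufa6. Ndufa7 had 1753, 1917 and 2584 in ISP8 cells, against 2121, 2585 and 3058 in DN3 cells. Ndufa6 had 1955, 2461 and 2631 in ISP8 cells, against 2594, 2913 and 3673 in DN3 cells. Both were lower in 8 of 8 animals with overlapping ranges, and the changes were -0.33 ± 0.069 (SE, adjusted p = 0.000829) and -0.31 ± 0.066 (SE, adjusted p = 0.00114). After centring each array on its median neither passed, at -0.080 (limma adjusted p = 0.46) and -0.054 (limma adjusted p = 0.577). Ndufb10 lay close to 0, at -0.0043 ± 0.056 (SE, adjusted p = 0.961), and was higher in 4 animals and lower in 4. The remaining complex I genes that did not pass were Ndufa10, Ndufb1 and Ndufb4, and the last of these had a single-symbol probe set near background (1.81 to 44.3 in ISP8 cells, 2.13 to 48.4 in DN3 cells).

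**Figure D2:**
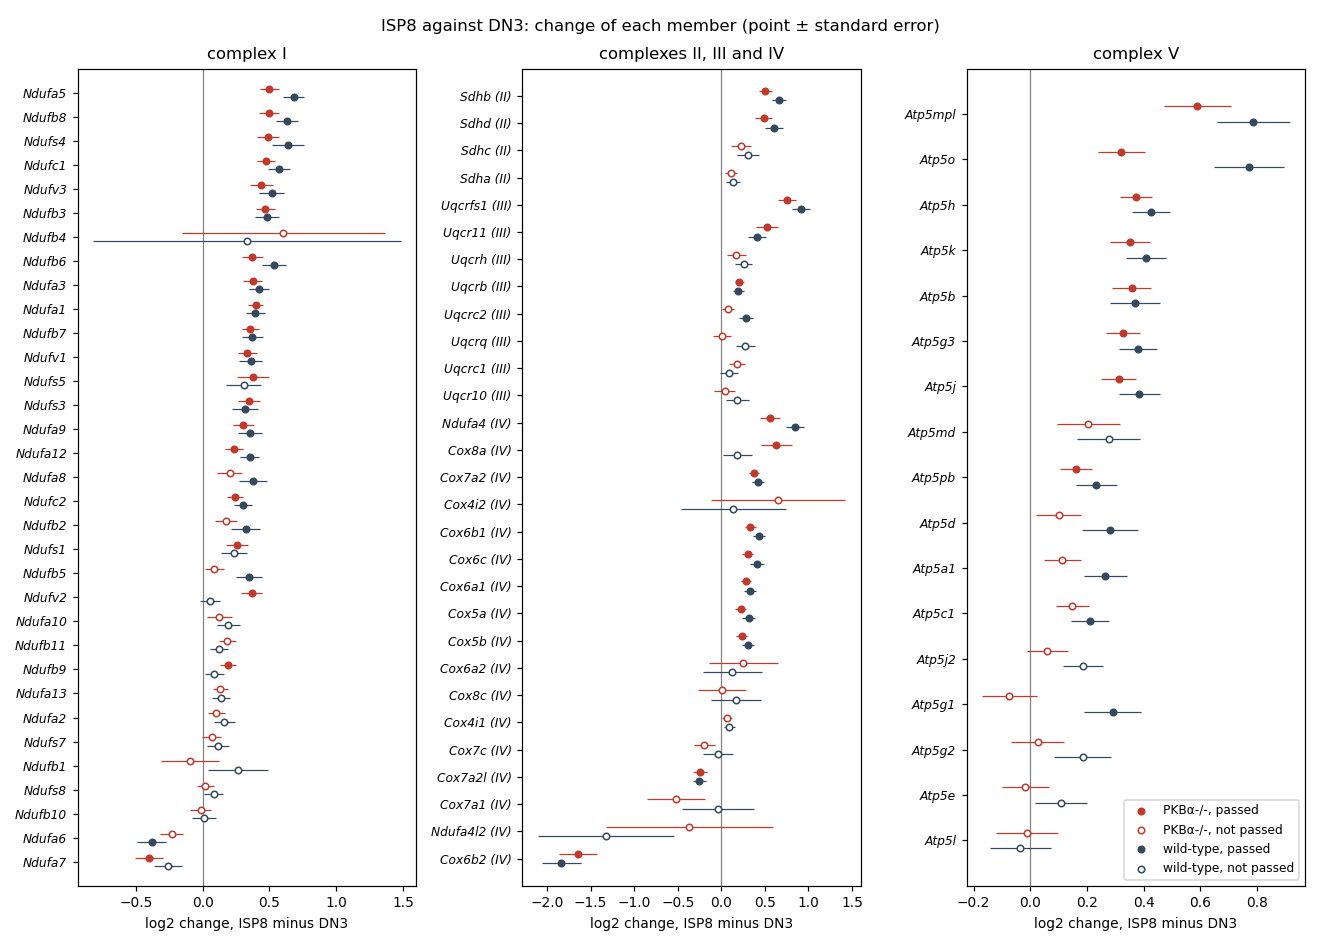
Log2 change between stages (ISP8 minus DN3, x axis) of each member in PKBα-/- and in wild-type mice, by complex (roman numeral in brackets), as point ± standard error, with filled points for an adjusted p under 0.05. Most filled points lie right of 0 in both genotypes, and Cox6b2 lies farthest left, at -1.65 in PKBα-/- and -1.84 in wild-type mice.

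All 4 subunits of complex II were higher in ISP8 cells, although the calls of Sdha and Sdhc were lost under several alternatives, with a median log2 change of 0.40, but by unequal amounts. Sdhb, the iron-sulphur subunit, had 9618, 10566, 9399 and 12541 in PKBα-/- and 13086, 11598, 10015 and 12583 in wild-type ISP8 cells (pairs 1 to 4). In DN3 cells it had 6795, 8006, 7221 and 7511 in PKBα-/- and 7406, 7874, 7211 and 7234 in wild-type mice. Every ISP8 array was above every DN3 array, and the change was 0.58 ± 0.058 (SE, adjusted p = 3.74e-07), or 1.5-fold. Sdhd, a membrane anchor at the ubiquinone site and one of the genes whose promoter is printed above, had 3034, 3362 and 4146 in ISP8 cells, against 1865, 2464 and 3010.3 in DN3 cells, again without overlap (0.54 ± 0.071 SE, adjusted p = 7.76e-06). Sdhc, the other membrane anchor, had 1083, 1148 and 1645 in ISP8 cells, against 856, 997 and 1313 in DN3 cells. It was higher in 8 of 8 animals, although the stages overlapped (0.26 ± 0.077 SE, adjusted p = 0.0103). It did not pass without pair 1 (0.22, adjusted p = 0.0683), without pair 4 (0.23, adjusted p = 0.058) or with its probe sets averaged (0.081, adjusted p = 0.529). Sdha, the flavoprotein that oxidises succinate, had 7183, 7992 and 8409 in ISP8 cells, against 6520.0, 7252 and 7792 in DN3 cells. Its change of 0.12 ± 0.047 (SE, adjusted p = 0.0419) was the smallest of the 4, and turned to -0.043 after quantile normalization. Sdha did not pass without pair 2 (0.14, adjusted p = 0.0573), pair 3 (0.12, adjusted p = 0.151) or pair 4 (0.10, adjusted p = 0.181), with no filter (adjusted p = 0.0733) or without the animal as a block (adjusted p = 0.0642).

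Complex III had 5 of 8 subunits higher in ISP8 cells and none lower (median 0.19), and held the member with the largest increase of all. Uqcrfs1, the Rieske iron-sulphur protein of the complex, had 10284, 12493, 11885 and 12411 in PKBα-/- and 13104, 11256, 11473 and 11107 in wild-type ISP8 cells (pairs 1 to 4). In DN3 cells it had 6296, 9293, 7565 and 5310.2 in PKBα-/- and 6685, 5702, 7945 and 4922 in wild-type mice. All ISP8 arrays were above all DN3 arrays, and the DN3 arrays differed among themselves more than the ISP8 arrays did. The change was 0.83 ± 0.080 (SE, adjusted p = 2.51e-07), or 1.78-fold. Uqcr11, a small subunit, had 4857, 5687 and 6574 in ISP8 cells, against 2597, 4124 and 6009 in DN3 cells. It was higher in 8 of 8 animals, with overlap between the stages (0.47 ± 0.089 SE, adjusted p = 0.00041). Uqcrc2, one of the core proteins, had 13638, 15288 and 18617 in ISP8 cells, against 12889.5, 13517 and 15517 in DN3 cells (0.18 ± 0.058 SE, adjusted p = 0.0186). It did not pass after quantile normalization (0.025, adjusted p = 0.745) or without pair 4 (0.11, adjusted p = 0.164). The other core protein, Uqcrc1, had 2654, 3485 and 3763 in ISP8 cells, against 2087, 3428 and 3627 in DN3 cells and did not pass (0.13 ± 0.065 SE, adjusted p = 0.114). The small subunits Uqcrb and Uqcrh passed at 0.20 and 0.22, and Uqcrq and Uqcr10 did not, at 0.14 ± 0.083 (SE, adjusted p = 0.189) and 0.11 ± 0.085 (SE, adjusted p = 0.324).

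**Figure D3:**
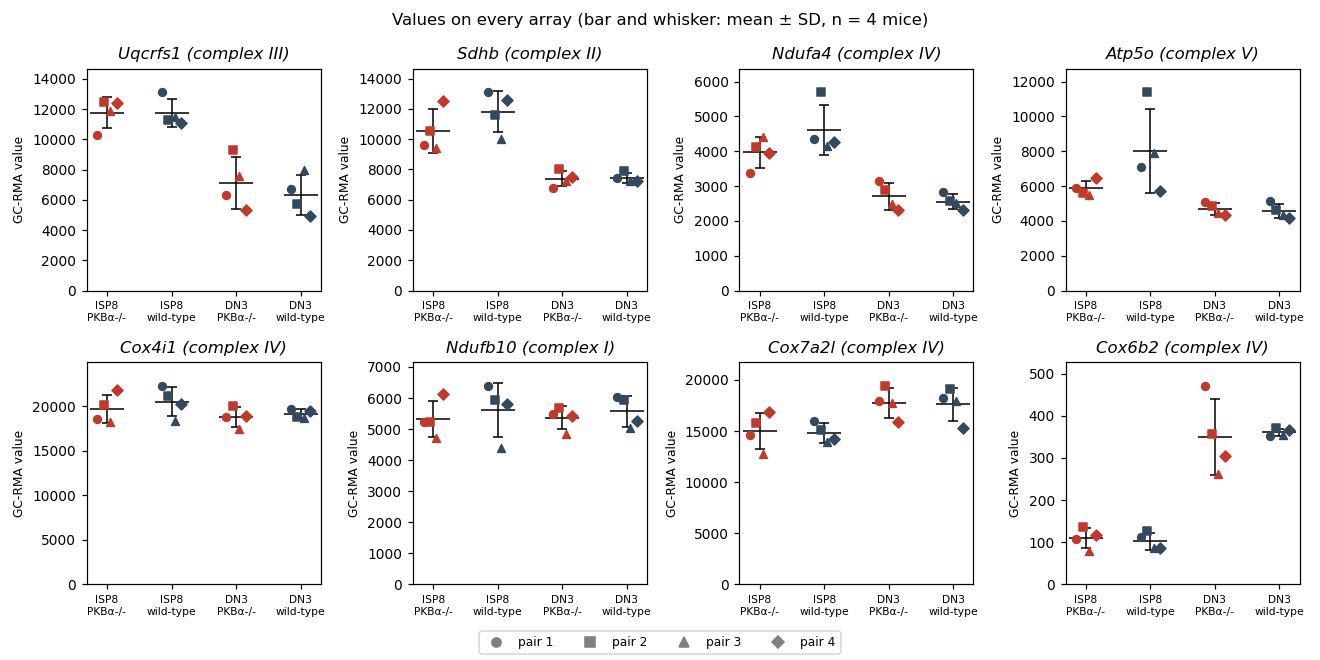
GC-RMA values (y axis, linear, from 0) of 8 members on every array, by subset and genotype, with 1 symbol per littermate pair and the mean ± SD of 4 mice. Uqcrfs1, Sdhb, Ndufa4 and Atp5o are higher and Cox6b2 is lower in all ISP8 arrays than in any DN3 array, Cox7a2l overlaps with a lower mean, and Cox4i1 and Ndufb10 overlap. The single high Atp5o array, at 11382, is wild-type ISP8 of pair 2.

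In complex IV, where several subunits exist as isoforms of particular tissues, 8 of the 17 genes tested were higher in ISP8 cells and 2 were lower (median 0.27). Without the tissue-restricted isoforms 8 of 11 were higher and 1 was lower (median 0.31), and of the 6 such isoforms tested none was higher and 1 was lower (median -0.10). This list counts Ndufa4, once assigned to complex I, as a subunit of complex IV. Ndufa4 had 3378, 4202 and 5689.5 in ISP8 cells, against 2307, 2548 and 3137 in DN3 cells, without overlap, and the change was 0.70 ± 0.087 (SE, adjusted p = 4.78e-06). Its isoform Ndufa4l2 was above a value of 20 on 8 of 16 arrays and did not pass. Cox4i1, the broadly expressed isoform of subunit 4, had 18275, 20189.5 and 22272 in ISP8 cells, against 17401, 18849 and 20072 in DN3 cells and did not pass (0.080 ± 0.041 SE, adjusted p = 0.132). Cox4i2, known from lung, had 17 to 52.1 in ISP8 cells and 5.75 to 47.8 in DN3 cells. Cox5a, on the matrix side of the complex, had 14675, 15543 and 18094 in ISP8 cells, against 11487, 13147 and 14201 in DN3 cells, without overlap (0.27 ± 0.048 SE, adjusted p = 0.00019). Cox5b, its zinc-binding neighbour, had 20024, 22656 and 25293 in ISP8 cells, against 17145, 18274 and 21458 in DN3 cells, with overlapping ranges (0.27 ± 0.046 SE, adjusted p = 0.000127). Cox6c had 10626, 11481 and 13081 in ISP8 cells, against 8364, 9041 and 10351 in DN3 cells, without overlap (0.35 ± 0.052 SE, adjusted p = 2.67e-05). Of the subunit 6a isoforms, the common Cox6a1, whose promoter is printed above, had 20568, 22075 and 23704 in ISP8 cells, against 15750.0, 18178 and 20224 in DN3 cells, without overlap (0.31 ± 0.041 SE, adjusted p = 1.06e-05). The heart and muscle isoform Cox6a2 was at 45.9 to 102 in ISP8 and 44.5 to 93.5 in DN3 cells and did not pass. The subunit 6b isoforms moved in opposite directions. Cox6b1, the common isoform, had 18934, 21595 and 24945 in ISP8 cells, against 15011, 16634 and 18516 in DN3 cells, without overlap (0.38 ± 0.042 SE, adjusted p = 1.09e-06). Cox6b2, the isoform known from testis, had 108, 137, 80.1 and 117 in PKBα-/- and 112, 126, 86.3 and 85.4 in wild-type ISP8 cells (pairs 1 to 4). In DN3 cells it had 471, 357, 261 and 306 in PKBα-/- and 352, 370.0, 355 and 365 in wild-type mice. Every ISP8 array was below every DN3 array. The change was -1.74 ± 0.15 (SE, adjusted p = 5.02e-08), a ratio of 0.299 for ISP8 over DN3, and the largest of any member that passed in either direction. Among the subunit 7a genes, Cox7a2 had 20895, 22505 and 24955 in ISP8 cells, against 15979, 16942 and 19187 in DN3 cells, without overlap (0.40 ± 0.042 SE, adjusted p = 6.91e-07). Cox7a2l, which encodes a related protein, had 12753, 14831 and 16899 in ISP8 cells, against 15343, 17909.8 and 19405 in DN3 cells. It was lower in 7 of 8 animals (-0.25 ± 0.055 SE, adjusted p = 0.00139), and centring the arrays on their medians brought it to 0.0057. The muscle isoform Cox7a1 did not pass (-0.28 ± 0.27 SE, adjusted p = 0.438). Cox8a had 703, 964 and 1173 in ISP8 cells, against 420.4, 729 and 1077 in DN3 cells (0.41 ± 0.14 SE, adjusted p = 0.0296). It did not pass without pair 2 (0.41, adjusted p = 0.0734), without pair 3 (0.19, adjusted p = 0.27) or with its probe sets averaged (0.51, adjusted p = 0.0801). The isoforms Cox8b and Cox7b2 were above 20 on 1 and 2 of the 16 arrays and were not tested, and Cox8c and Cox7c did not pass (0.088 and -0.12).

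Of complex V, 12 of 17 subunits were higher in ISP8 cells and none was lower (median 0.20), with 4 of 5 in the F1 head (median 0.19) and 8 of 12 in Fo and the stalks (median 0.29). Atp5b, the catalytic β subunit, had 9517, 10552 and 11082 in ISP8 cells, against 6384, 8444 and 9433 in DN3 cells, without overlap (0.36 ± 0.053 SE, adjusted p = 2.75e-05). Atp5a1, the α subunit, had 12969.9, 14046 and 15201 in ISP8 cells, against 11566, 12320.0 and 13600.1 in DN3 cells (0.19 ± 0.050 SE, adjusted p = 0.00561). Atp5c1, the γ subunit of the rotating shaft, had 22078, 24792 and 26350.3 in ISP8 cells, against 19429.6, 21586 and 23149 in DN3 cells (0.18 ± 0.042 SE, adjusted p = 0.00222). Both overlapped between the stages. Neither passed after quantile normalization (0.038, adjusted p = 0.557 for Atp5a1 and 0.10, adjusted p = 0.0583 for Atp5c1), and Atp5a1 did not pass without pair 4 (0.15, adjusted p = 0.0512). Atp5d, the δ subunit, passed at 0.19, and the ε subunit Atp5e did not (0.046 ± 0.061 SE, adjusted p = 0.589). Atp5o, the stalk protein that ties F1 to Fo, had 5918, 5614, 5476 and 6461 in PKBα-/- and 7089, 11382, 7892 and 5723 in wild-type ISP8 cells (pairs 1 to 4). In DN3 cells it had 5096, 4877, 4463 and 4346 in PKBα-/- and 5122, 4633, 4348 and 4159 in wild-type mice. No ISP8 array overlapped with a DN3 array, and the wild-type ISP8 array of pair 2 stood above the rest. The change was 0.55 ± 0.10 (SE, adjusted p = 0.000207). Atp5h, a stalk subunit whose promoter is printed above, had 20882, 23743 and 24878 in ISP8 cells, against 17091, 17628 and 18995 in DN3 cells, without overlap (0.40 ± 0.040 SE, adjusted p = 3.35e-07). Atp5mpl, a small proteolipid of Fo, had 2319.6, 2706 and 4031 in ISP8 cells, against 1227, 1814 and 1987 in DN3 cells, also without overlap, and had the largest change of the complex (0.69 ± 0.093 SE, adjusted p = 1.22e-05). The 3 genes Atp5g1, Atp5g2 and Atp5g3 encode the same mature subunit c of the rotor ring. Atp5g3 had 22010.0, 23671 and 25607 in ISP8 cells, against 16894, 18837 and 19950.0 in DN3 cells, without overlap (0.35 ± 0.042 SE, adjusted p = 3.00e-06). Atp5g1 had 2472, 2576 and 3625 in ISP8 cells, against 2127, 2553 and 3045 in DN3 cells. Atp5g2 had 3082, 3819 and 4631 in ISP8 cells, against 3378, 3502 and 3897 in DN3 cells. Neither passed, at 0.11 ± 0.077 (SE, adjusted p = 0.285) and 0.11 ± 0.069 (SE, adjusted p = 0.243). Whether the 3 changes differed from each other was not tested. Atp5j, Atp5k, Atp5pb and Atp5md passed at 0.35, 0.38, 0.20 and 0.24, and Atp5l and Atp5j2 did not pass.

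The stage difference was then taken in each genotype alone, with 4 mice in each. In PKBα-/- mice, 40 of the 79 subunits tested were higher in ISP8 cells and 3 were lower (all probe sets: 11.9% higher, 16.2% lower), with a median of 0.22 against -0.047 over all probe sets. In wild-type mice, 43 were higher and 3 lower (all probe sets: 11.6% higher, 17.3% lower), with a median of 0.29 against -0.087. By complex, the medians in PKBα-/- mice were 0.26 for complex I, 0.36 for II, 0.17 for III, 0.23 for IV and 0.16 for V. In wild-type mice they were 0.32, 0.45, 0.27, 0.17 and 0.28 in the same order. The members' median was above 0 in every animal. It was 0.17, 0.15, 0.22 and 0.35 in the PKBα-/- mice of pairs 1 to 4, and 0.27, 0.35, 0.24 and 0.34 in the wild-type mice. Uqcrfs1 changed by 0.75 ± 0.10 (SE, adjusted p = 5.99e-05) in PKBα-/- mice and by 0.91 ± 0.10 (SE, adjusted p = 1.34e-05) in wild-type mice, and Cox6b2 by -1.65 ± 0.22 (SE, adjusted p = 5.46e-05) and -1.84 ± 0.23 (SE, adjusted p = 3.97e-05).

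The array often has several probe sets for a gene, and these did not always move together. A further 76 probe sets of the members were tested, and 40 were higher and 10 lower in ISP8 cells (median 0.32). The 47 with a mean value above 1000 had 36 higher and 4 lower (median 0.37), and the 29 dimmer ones had 4 higher and 6 lower (median -0.036). Of the 46 genes with more than 1 probe set tested, 12 had probe sets that differed in sign, and 3 had probe sets that passed in both directions. For Ndufb8, the brighter probe set had a mean of 6650.4 in ISP8 and 4504 in DN3 cells (0.56) and the other had a mean of 304 in ISP8 and 502 in DN3 cells (-0.74). For Atp5c1, the brighter had a mean of 24289 in ISP8 and 21426 in DN3 cells (0.18) and the other a mean of 507 in ISP8 and 1051 in DN3 cells (-1.05). The third gene was Ndufb2, of which 2 probe sets were higher and a dim one, with a mean of 117 in ISP8 and 166 in DN3 cells, was lower (-0.54). The probe set that stands for Ndufb2 did not pass after quantile normalization (0.16, adjusted p = 0.0666) or without pair 4 (0.22, adjusted p = 0.0513). When the mean of all probe sets stood for a gene, the changes of Ndufb8 and Atp5c1 were -0.089 and -0.43. Large differences between probe sets were also seen for Uqcrq (-0.13 to 1.08), Ndufa12 (-0.42 to 0.52), Atp5a1 (-0.036 to 0.87), Ndufa10 (-0.64 to 0.16) and Atp5g1 (-0.66 to 0.11), with the range of log2 changes in brackets. Some genes were alike across probe sets. All 3 probe sets of Cox7a2l were lower in ISP8 cells (-0.36 to -0.25), 3 of 5 of Ndufa7 were lower and none higher, and all 3 of Ndufv1 were higher (0.35 to 0.37). Whether a dim probe set reads another transcript of the gene was not tested.

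**Figure D4:**
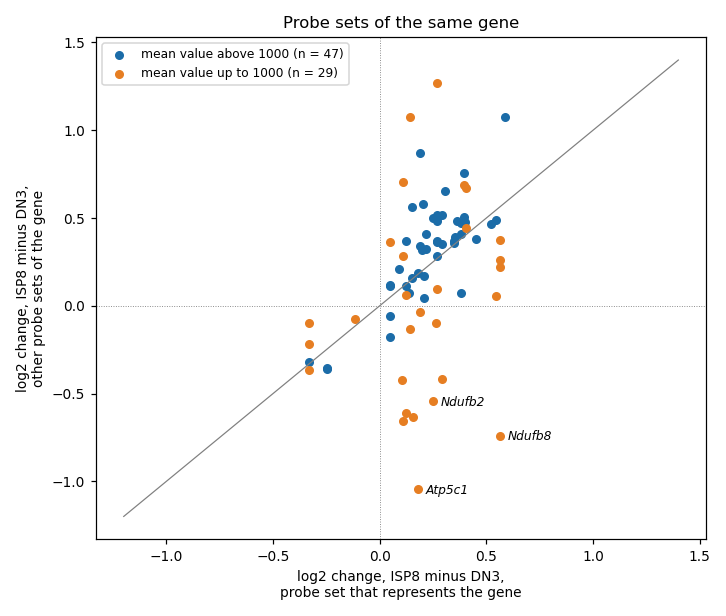
Log2 change between stages (ISP8 minus DN3) of the probe set that represents a gene (x axis) against each other probe set of that gene (y axis), coloured by its mean value. The diagonal marks equal changes. The 47 probe sets above 1000 lie mostly in the upper right, and the lowest points are dim probe sets of Atp5c1 and Ndufb8.

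The second question was whether loss of PKBα changed these transcripts within a stage. No subunit passed the test in either stage. In DN3 cells, 0 of 79 members passed in the limma fit with the littermate pair as a block, against 13 of 33962 probe sets in all (0.0383%). An unadjusted p under 0.05 was reached by 2 members, and by 4.83% of all probe sets. The members' median log2 change, PKBα-/- minus wild-type, was -0.011, against -0.010 over all probe sets, and 43 of 79 changes were negative (all probe sets: 51.9%). The methods' t-test, with its threshold on fold and consistency over pairs, also selected no member in either stage. In all it selected 458 of 33962 probe sets in DN3 and 521 of 34016 in ISP8 cells. The detection call that the paper also describes was not applied in this t-test. At its unadjusted p up to 0.05, 1 of 79 members in DN3 cells passed (all probe sets: 4.38%) and 5 of 78 in ISP8 cells (all probe sets: 5.32%). Cox8a had 739, 669.5, 420.4 and 719 in PKBα-/- DN3 cells and 1077, 895, 517 and 792 in wild-type DN3 cells (pairs 1 to 4). The genotypes overlapped, and the change was -0.35 ± 0.13 (SE, limma adjusted p = 0.972). The other members with the smallest p were Ndufv2 (-0.16 ± 0.070) and Ndufb5 (0.16 ± 0.079), with an adjusted p of 0.972 for each. In the DN3 cells the members' median was -0.086, 0.057, -0.026 and -0.0013 in pairs 1 to 4.

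In ISP8 cells, 0 of 78 members passed, against 5 of 34016 probe sets (0.0147%), and most changes were small and negative. The median log2 change was -0.075, against 0.016 over all probe sets, and 63 of 78 changes were negative (all probe sets: 47.4%). A member was lower in all 4 pairs in 15 cases (all probe sets: 6.71%), and 9 members had an unadjusted p under 0.05 (all probe sets: 6.08%). By complex, the medians were -0.051 for complex I, -0.064 for II, -0.11 for III, -0.078 for IV and -0.10 for V. The shift was not the same in every pair. The members' median was -0.20 in pair 1 and -0.15 in pair 2, and -0.0033 and 0.026 in pairs 3 and 4, where the medians of all probe sets lay at 0.039, 0.0075, -0.0065 and 0.012. Without pair 1 the members' median was -0.037, and without pair 2 it was -0.052. After quantile normalization it was -0.028, against 0.0033 over all probe sets. It lay farther from 0 without pair 3 (-0.10), without pair 4 (-0.11) and after median centring (-0.14, against -0.045 over all probe sets). Among bright probe sets, with the filter at 1000, the members' median was -0.075, against -0.013 over all probe sets tested. The 9 members with an unadjusted p under 0.05 became 4 without pair 1, 2 without pair 2, 14 without pair 4 and 4 without the pair as a block. Uqcr10, a small subunit of complex III, had the smallest p, with 967, 1079, 703 and 1020.0 in PKBα-/- ISP8 cells and 1285, 1437, 922 and 1197 in wild-type ISP8 cells (pairs 1 to 4). The change was -0.36 ± 0.11 (SE, limma adjusted p = 0.721), negative in 4 of 4 pairs. Uqcrc2 had 13638, 14687, 14036 and 15864 in PKBα-/- ISP8 cells and 16127, 16834, 14712 and 18617 in wild-type ISP8 cells, and the change was -0.18 ± 0.059 (SE, limma adjusted p = 0.753), negative in 4 of 4 pairs. The ranges of the genotypes overlapped for both genes. For Atp5o, whose arrays are given above, the change was -0.41 ± 0.14 (SE, limma adjusted p = 0.778), and leaving out pair 2, with its single high wild-type array, brought it to -0.20. The sign was positive in pair 4. Actin is measured at its 3′ and at its 5′ end, and the 3′ minus 5′ difference, which grows as RNA degrades, exceeded that of the littermate by a mean of 0.24 (log2) in PKBα-/- ISP8 cells, with the same sign in 4 of 4 pairs (exact two-sided sign-flip p = 0.125, the smallest that 4 pairs allow). It was -0.17 in DN3 cells (exact p = 0.375). For Gapdh the same differences were 0.10 in ISP8 and -0.074 in DN3 cells. The summed markers of myeloid and dendritic cells were 623, 464, 495 and 733 in PKBα-/- ISP8 cells and 1026, 3540.4, 525 and 996 in wild-type ISP8 cells of pairs 1 to 4, so the wild-type array of pair 2 stood far above the others, and none of the 10 markers was under 20 on all arrays. All 9 of the markers tested had a negative change (median -0.37), as did all 5 of the B cell markers (-0.48). In DN3 cells 8 of the 10 myeloid and dendritic markers had a negative change (median -0.51), and 2 of 4 B cell markers did (median -0.045). All 7 DN3 markers tested had a positive change in PKBα-/- ISP8 cells (median 0.23), led by Dtx1, a Notch target (0.85, limma adjusted p = 0.153), and the 10 proliferation markers had a median of 0.0027. No marker of these lists passed. The part of any of these in the ISP8 values was not tested. Other mitochondrial lists had medians of -0.10 for the mitochondrial ribosome (61 of 76 negative), -0.069 for the citric acid cycle (13 of 16), -0.052 for assembly factors (29 of 42), -0.10 for biogenesis regulators (11 of 17), -0.058 for subunits outside the symbol rule (7 of 7) and -0.020 for carriers and porins (5 of 6), and no gene of them passed.

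**Figure D5:**
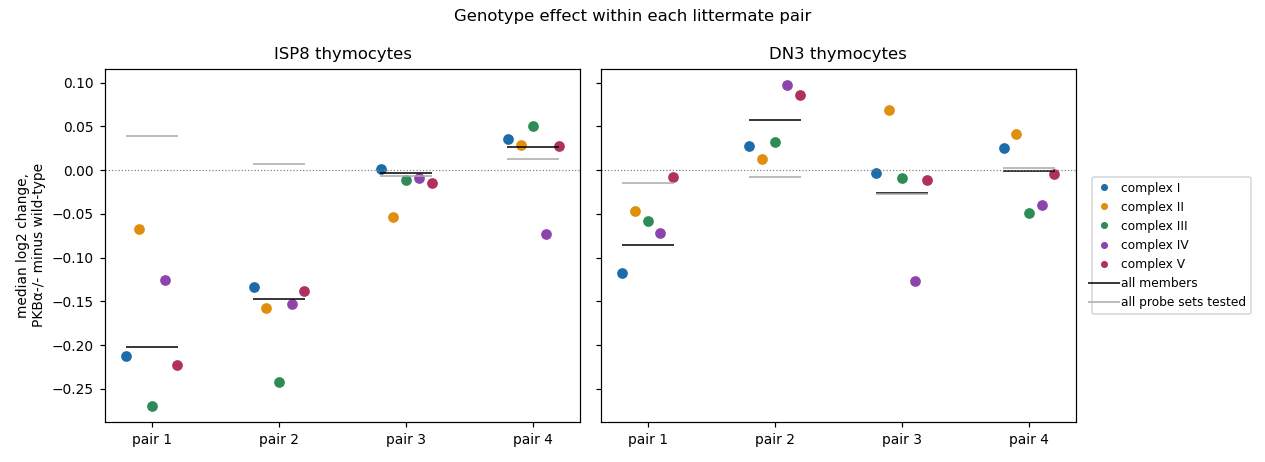
Median log2 change, PKBα-/- minus wild-type (y axis), within each littermate pair (x axis), for all members (black bars), for each complex (coloured points) and for all probe sets tested (grey bars), in ISP8 cells (left) and DN3 cells (right). The members lie below all probe sets in pairs 1 and 2 of ISP8 cells, at -0.20 and -0.15, and near them in pairs 3 and 4.

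The difference of the genotype effect between the stages, which equals the difference of the stage effect between the genotypes, was tested directly over all 16 arrays. The animal was the block, so littermates were not matched in this test, and the pair medians below are not its units. No member passed, nor did any of the 32831 probe sets (limma, 0.0%). At an unadjusted p under 0.05 there were 4 members (all probe sets: 4.55%). The members' median was -0.068, against 0.025, and 60 of 79 were negative (all probe sets: 46.9%). It was -0.13 in pair 1 and -0.22 in pair 2, and 0.00070 and 0.013 in pairs 3 and 4. Without pair 2 the median was -0.033, with no member at an unadjusted p under 0.05. It was -0.033 after quantile normalization and -0.14 after median centring, against -0.0024 and -0.052 over all probe sets. With the filter at 1000 the members' median was -0.072, against -0.014 over all probe sets tested. The 3 members with the smallest p were Ndufv2 (0.31 ± 0.11), Atp5g1 (-0.36 ± 0.13) and Atp5o (-0.45 ± 0.17), given as log2 difference ± SE, with an adjusted p of 0.968 for each. Ndufv2 had 12142, 12977, 14707 and 9782 in PKBα-/- and 11219.8, 12206, 11025 and 9768 in wild-type ISP8 cells (pairs 1 to 4), and 10123, 9523, 9614 and 8881 in PKBα-/- and 11641, 11756, 10672 and 8705 in wild-type DN3 cells. The ranges of the genotypes overlapped in both stages.

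Other genes of the mitochondrion were set beside the chain in the stage comparison over both genotypes, in which 17.6% of all probe sets were higher and 24.9% lower. In the mitochondrial ribosome, which makes the subunits encoded by mitochondrial DNA, 40 of 76 genes tested were higher in ISP8 cells and 3 lower (median 0.22), with 0.85 for Mrpl42 and -0.53 for Mrpl33. In the citric acid cycle and pyruvate dehydrogenase, 11 of 16 genes tested were higher in ISP8 cells and 1 lower (median 0.29). Cs (citrate synthase) changed by 0.37 and Dlat, a pyruvate dehydrogenase subunit, by 0.52, and Pdha1, another of its subunits, was the one that fell, by 0.20 on the log2 scale. Of the inner membrane carriers and porins, 5 of 6 genes tested were higher in ISP8 cells and 0 lower (median 0.30), among them the ADP/ATP carriers Slc25a4 (0.41) and Slc25a5 (0.30). Of subunits and electron carriers outside the symbol rule, 5 of 7 were higher and 1 lower, including cytochrome c (Cycs, 0.59) and cytochrome c1 of complex III (Cyc1, 0.41). Assembly factors build the complexes without staying in them. Of these, 9 of 42 genes tested were higher in ISP8 cells and 9 lower (median 0.0037). Cox17, a copper chaperone of complex IV, and Oxa1l, which inserts proteins into the inner membrane, rose by 0.51 and 0.45, and Surf1 and Sco2, both needed for complex IV, fell by 0.41 and 0.63 on the log2 scale. Of the regulators of mitochondrial biogenesis, 6 of 16 genes tested were higher in ISP8 cells and 3 lower (median -0.026). Genes of factors known to bind the motif cores searched for rose by small amounts, at 0.41 for Nrf1, 0.23 for Gabpa, 0.53 for Gabpb1 and 0.34 for Yy1. Polg, the mitochondrial DNA polymerase, had the largest increase of the list (1.55), and Tfam, which packages mitochondrial DNA, had 0.27. The 3 regulators that were lower were Myc (-0.51), Twnk (-0.48) and Polg2 (-0.22). Of the 15 members with the NRF1 core 11 were higher in ISP8 cells, and of the 12 with the ETS core 10 were, beside 54 of 79 of all members. Scaling moved these lists as well. After centring each array on its median, 19 were higher and 3 lower (median 0.26) among the assembly factors. Of all 32831 probe sets, 9583 were then higher and 5136 lower. Under this centring Surf1 and Sco2 no longer passed, and the sign of Pdha1 turned, to 0.051 (limma adjusted p = 0.54). After quantile normalization, 11 were higher and 6 lower (median 0.083) among the assembly factors, and Sco2 had an adjusted p of 0.0789. Over all probe sets this scaling gave 7022 higher and 6672 lower. The median of the mitochondrial ribosome was 0.24 after quantile normalization and 0.48 after centring.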

How the data were processed

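Transcripts were measured on 16 Affymetrix mouse genome arrays. RNA was isolated from sorted cells with the PicoPure kit, amplified in 2 cycles and hybridised. For each subset, equal numbers of cells were used within a littermate pair. The paper does not state that cell numbers were matched between ISP8 and DN3 cells. The deposited values are array intensities that the authors corrected for background and normalized with GC-RMA (named in the submitters' processing notes, with no version), on a linear scale, for 45101 probe sets. The number of arrays limits the precision. Array medians for ISP8 cells were 56.0 to 60.3 (PKBα-/-) and 55.1 to 60.4 (wild-type). Those for DN3 cells were 58.5 to 67.5 (PKBα-/-) and 58.7 to 70.5 (wild-type). Upper quartiles were 386 to 426 in ISP8 and 440 to 483 in DN3 arrays. The highest value of an array was 49279 to 80254 in ISP8 and 43031 to 52143 in DN3 cells. The distributions thus differed in shape between the stages. Results after quantile normalization, which gives all arrays the same distribution, are given above. The annotation gave 34958 probe sets 1 symbol, 932 several and 9211 none, and only the first could stand for a gene. The tests, the adjustment and the shares over all probe sets took probe sets of every kind. The complex IV gene Cox7b was not analysed here.

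Values were taken as log2 with no constant added. Tests took probe sets that exceeded 20 on 1 or both arrays of a pair or animal, for at least 3 of the 4 (6 of 8 over both genotypes). Differences were fitted with limma 3.58.1 under R 4.3.3, with moderation that follows the mean level, the pair or animal as a block, and Benjamini-Hochberg adjustment over all probe sets tested at 0.05. P values measure the spread between animals or pairs. Levels of different genes were not compared, since probes differ in brightness. Members and lists were chosen with earlier results of these data known. Genes given with full values are signature subunits, isoform sets, the 3 smallest p of each genotype test, up to 3 members per complex and direction in the stage comparisons, and up to 8 genes whose probe sets disagree. Scripts were tested on simulated data. Plots were made in Python 3.11.15 with matplotlib 3.10.9.

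The labels state which arrays form a pair, and the number in the array title ties both subsets to a mouse. After group means were removed, littermates correlated at 0.316 to 0.384 in DN3 cells (mice of different pairs -0.228 to 0.0714) and at 0.0706 to 0.178 in ISP8 cells (-0.170 to 0.0540). Both subsets of an animal correlated at 0.111 to 0.152 in PKBα-/- mice (different animals -0.134 to 0.0410) and at 0.134 to 0.290 in wild-type mice (-0.210 to 0.0917). Alternatives were no filter, filters at 100 and 1000 (the last chosen after seeing the data), an added constant of 20, quantile normalization, median centring, no replicate block, the pair as block over all arrays, robust moderation, a gene's probe sets averaged, the methods' t-test, and leaving out each pair.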

Additional observations from a re-analysis of the deposited data

Results flagged for a closer look

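In 15 of the 200 groups of 4 mice examined (50 genes in 4 groups each), 1 array lay apart from the other 3 by more than Dixon's 95% critical value (0.829 of the group's range). Chance sets apart about 1 group in 20. In complex I these were the following. Ndufb8 had 4006 in the PKBα-/- DN3 array of pair 4, the lowest of its group (others 4706 to 4812). Ndufc1 had 7289.5 in the PKBα-/- DN3 array of pair 4, the lowest of its group (others 8023 to 8056). Ndufa7 had 2328 in the PKBα-/- ISP8 array of pair 4, the highest of its group (others 1753 to 1785). Ndufa10 had 7325 in the PKBα-/- DN3 array of pair 2, the highest of its group (others 6007 to 6168). The first and second of these genes were low on the same array, PKBα-/- DN3 of pair 4.

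In complex II, Sdha had 7183 in the PKBα-/- ISP8 array of pair 1, the lowest of its group (others 8006 to 8115). Sdhc had 1645 in the PKBα-/- ISP8 array of pair 1, the highest of its group (others 1087 to 1165). Both came from the same array, and they lay on opposite sides of their groups. In complex III, Uqcrc1 had 2654 in the wild-type ISP8 array of pair 4, the lowest of its group (others 3461 to 3608) and 2087 in the wild-type DN3 array of pair 4, the lowest of its group (others 3351 to 3627). The same wild-type mouse was thus the low one in both stages. Uqcr11 had 6574 in the PKBα-/- ISP8 array of pair 1, the highest of its group (others 5019 to 5226) and 4857 in the wild-type ISP8 array of pair 4, the lowest of its group (others 6147 to 6392). In complex IV, Cox7a2 had 19187 in the wild-type DN3 array of pair 1, the highest of its group (others 16542 to 16935). Ndufa4 had 5689.5 in the wild-type ISP8 array of pair 2, the highest of its group (others 4144 to 4362). The array with the high Ndufa4 value is the one with the highest sum of myeloid markers among ISP8 arrays (3540.4), and the part of these in the value was not tested. In complex V, Atp5g2 had 3686 in the wild-type DN3 array of pair 1, the highest of its group (others 3461 to 3498). Atp5h had 18995 in the PKBα-/- DN3 array of pair 2, the highest of its group (others 17091 to 17401). Atp5mpl had 1227 in the PKBα-/- DN3 array of pair 4, the lowest of its group (others 1822 to 1951). No member moved one way in every animal of one genotype and the opposite way in every animal of the other.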

How the results depend on the processing

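Scaling moved the stage counts most. With quantile normalization, the members' median was 0.16 over both genotypes, 0.13 in PKBα-/- mice and 0.20 in wild-type mice. In wild-type mice 26 members were then higher (all probe sets: 4649 of 34506). With median centring the members' median was 0.50, 0.44 and 0.58 in the same order. In wild-type mice 65 members were then higher (all probe sets: 7117 of 34506). In each of the 3 comparisons 1 member was lower (all probe sets: 5136 of 32831, 3727 of 34038 and 3536 of 34506). Leaving out each pair gave 42 to 53 members higher and 4 to 5 lower over both genotypes, where 4892 to 5303 of all 32831 probe sets were higher and 6921 to 7670 lower. It gave 34 to 39 members higher and 1 to 3 lower in PKBα-/- mice, and 33 to 39 and 1 to 3 in wild-type mice. The lower counts of 1 came without pair 1 in PKBα-/- mice, and without pair 1 or pair 3 in wild-type mice. Without the pair or animal as a block there were 50 higher and 4 lower over both genotypes, 37 higher and 2 lower in PKBα-/- mice and 37 higher and 2 lower in wild-type mice, and the number of probe sets called for genotype was 1 in DN3 and 2 in ISP8 cells, none a member. Members with an unadjusted p under 0.05 for genotype then numbered 4 in ISP8 and 0 in DN3 cells. Among the named genes, calls lost without the block were those of Sdha over both genotypes, Cox7a2l in PKBα-/- mice, and Ndufa6 and Uqcr11 in wild-type mice. Among the named genes, signs that turned were those of Sdha (-0.043, quantile normalization), Cox7a2l (0.0057 over both genotypes and 0.037 in wild-type mice, median centring), and, with the mean of all probe sets, Ndufb8 (-0.089 over both genotypes and -0.064 in wild-type mice) and Atp5c1 (-0.43). The last values average probe sets that move in opposite directions, and the other causes were not tested. Of the 38 named genes over both genotypes, 500 values under an alternative kept direction and call, 26 lost the call (Sdha, Sdhc, Ndufs1, Ndufv2, Ndufa6, Ndufa7, Ndufb2, Ndufb5, Uqcrc2, Cox8a, Atp5a1 and Atp5c1) and 4 turned, with 210, 10 and 0 for 17 genes in PKBα-/- mice and 204, 14 and 2 for 17 in wild-type mice. No member passed for genotype or for its difference between stages under any alternative with a test across all probe sets.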

Other observations

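A further 9 probe sets carry the symbol of a subunit together with that of another gene or pseudogene. None of them stands for a member above, because their signal cannot be given to 1 gene. Those that exceeded the filter were among all probe sets tested. The brightest, shared by Ndufs6 and Ndufs6b, had 6638 ± 111 in PKBα-/- and 6659.9 ± 569 in wild-type ISP8 cells, and 4639.7 ± 188 in PKBα-/- and 4665 ± 393 in wild-type DN3 cells (mean ± SD, n = 4 mice each). One shared by Ndufb4, Ndufb4b and Ndufb4c had 4908 ± 179 in PKBα-/- and 5534 ± 468 in wild-type ISP8 cells, and 3909 ± 163 in PKBα-/- and 3916 ± 357 in wild-type DN3 cells, whereas the probe set of Ndufb4 alone was near background. One shared by Ndufs5 and a pseudogene had 2574 ± 389 in PKBα-/- and 2604 ± 280.0 in wild-type ISP8 cells, and 1889.6 ± 130.1 in PKBα-/- and 1962 ± 142 in wild-type DN3 cells, and one shared by Ndufa11 and Ndufa11b had 1359 ± 242 in PKBα-/- and 1379 ± 446 in wild-type ISP8 cells, and 1002 ± 177 in PKBα-/- and 954 ± 133 in wild-type DN3 cells. For each of these 4, and for a second probe set of the Ndufb4 genes, the mean of both ISP8 groups was above that of both DN3 groups. The other 4 were dim. One shared by Ndufb2 and Adck2 had 119.9 ± 47.7 in PKBα-/- and 78.9 ± 32.1 in wild-type ISP8 cells, and 61.5 ± 44.6 in PKBα-/- and 60.3 ± 41.2 in wild-type DN3 cells. One shared by Ndufa13 and Yjefn3 had 25.3 ± 19.3 in PKBα-/- and 31.9 ± 19.6 in wild-type ISP8 cells, and 23.1 ± 10.2 in PKBα-/- and 23.4 ± 17.6 in wild-type DN3 cells. It was above 20 on 8 of the 16 arrays and was not tested between the stages. The remaining pair showed no such order of the means. A second probe set of Ndufa11 and Ndufa11b had 100.4 ± 37.7 in PKBα-/- and 98.7 ± 44.1 in wild-type ISP8 cells, and 111 ± 16.3 in PKBα-/- and 98.4 ± 20.6 in wild-type DN3 cells, and a second of Ndufa13 and Yjefn3 had 67.4 ± 42.2 in PKBα-/- and 102 ± 52.4 in wild-type ISP8 cells, and 124 ± 41.8 in PKBα-/- and 76.4 ± 41.1 in wild-type DN3 cells.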
